A study of Mus musculus with 24 samples.

Results

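The 10 genes Tlr1, Tlr2, Tlr3, Tlr4, Tlr7, Tlr9, Tlr13, Cd14, Ly96 and Myd88, which encode Toll-like receptors, the partners that hand lipopolysaccharide (LPS) to Tlr4 and a shared signalling adaptor, were followed through wounds of diabetic mice and through RAW264.7 cells. They were taken by gene symbol from a list. All 10 were found among the 52976 symbols of the count tables, and all 10 had enough counts to be tested in both wounds and cells. RNA sequencing had been done on 24 libraries, 18 from wound tissue and 6 from RAW264.7, an established mouse macrophage line. Wounds of diabetic controls and wounds given the hydrogel Fmoc-KYF-AgNCs-3S1C-Hyd2 were sampled on days 1, 7 and 14, with 3 libraries per group. The cells formed 1 group without hydrogel, labelled as LPS-treated, and 1 group with hydrogel, with 3 libraries each.

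The labels give no strain, age, sex or model of diabetes for the mice, no dose of LPS or gel and no hours of exposure, and they do not say whether control wounds received a dressing. Nothing says that libraries of a group came from separate animals or separate cultures, so each p-value reflects only how these libraries varied, and that variation may be technical. The series design describes both cell groups as LPS-induced, whereas the labels of the hydrogel-treated cells name only the gel, with a suffix that differs from library to library. Whether the treated cells also received LPS is therefore not settled, and a difference between the cell groups may be a difference in gel, in LPS or in both.

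Toll-like receptors are membrane proteins that recognise molecules of microbes and, in some cases, of damaged cells. At the cell surface, Tlr4 detects LPS of Gram-negative bacteria in a complex with Ly96 (MD-2), to which Cd14 delivers the LPS, and Tlr2 paired with Tlr1 or Tlr6 detects bacterial lipoproteins. Inside endosomes, Tlr3 senses double-stranded RNA, Tlr7 single-stranded RNA, Tlr9 DNA with unmethylated CpG and Tlr13, which is present in mice but not in humans, a stretch of bacterial ribosomal RNA. Myd88 joins every one of these receptors except Tlr3 to the kinases that activate NF-kappaB, while Tlr3, and Tlr4 from endosomes, signal through Ticam1 (TRIF). In skin wounds macrophages and neutrophils carry much of this equipment, and keratinocytes and fibroblasts carry some of it.

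RefSeq promoter entries on GRCm38.p6 were found for 6 of the 10 members, and 5 of them are shown because their genes changed and the printed bases hold a match to a motif of an immune transcription factor. The lines give the longest stretch of the 250 bases before the RefSeq start site that lies outside annotated exons, 5′ to 3′ on the strand of the gene, with motif matches in capitals. The Myd88 stretch lies inside the gene's annotated span, because another annotated transcript starts further upstream. The searches covered both strands of the 250 bases before each start, for GAGGAA (the core bound by PU.1, a macrophage factor), TGANTCA (AP-1), GAAA followed by any 2 bases and GAAA again (the interferon response element) and the kappaB motif.
Tlr1, chr5:64933562-64933808: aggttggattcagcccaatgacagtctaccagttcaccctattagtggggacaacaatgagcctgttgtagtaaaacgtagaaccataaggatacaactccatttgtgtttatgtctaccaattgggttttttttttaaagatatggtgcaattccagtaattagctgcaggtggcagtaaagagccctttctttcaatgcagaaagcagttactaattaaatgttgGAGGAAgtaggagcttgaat
Tlr9, chr9:106222348-106222597: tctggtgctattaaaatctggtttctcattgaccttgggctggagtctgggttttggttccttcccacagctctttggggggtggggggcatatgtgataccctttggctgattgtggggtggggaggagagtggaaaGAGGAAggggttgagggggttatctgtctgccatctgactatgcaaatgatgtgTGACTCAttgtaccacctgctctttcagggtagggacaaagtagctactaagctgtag
Tlr13, chrX:106143025-106143203: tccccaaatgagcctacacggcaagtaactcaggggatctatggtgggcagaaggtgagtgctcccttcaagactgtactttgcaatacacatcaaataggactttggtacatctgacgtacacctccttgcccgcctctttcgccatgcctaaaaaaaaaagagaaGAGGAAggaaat
Tlr2, chr3:83841768-83841858: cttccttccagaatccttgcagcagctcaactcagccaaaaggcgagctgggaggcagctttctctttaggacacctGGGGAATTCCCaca
Myd88, chr9:119340042-119340268: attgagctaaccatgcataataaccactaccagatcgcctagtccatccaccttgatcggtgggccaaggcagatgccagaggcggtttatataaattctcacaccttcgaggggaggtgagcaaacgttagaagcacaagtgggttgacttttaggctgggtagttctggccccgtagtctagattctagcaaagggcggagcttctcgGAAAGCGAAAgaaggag
GAGGAA stood before Tlr1, Tlr9 and Tlr13, and in 23.3% of all 32851 mouse promoter windows of the same length. A second RefSeq start of Tlr1 had no match to any motif searched and is not printed. The AP-1 letters stood before Tlr9 and in 6.75% of all windows. A kappaB match, read on both strands because it is a palindrome, stood before Tlr2, and another stood in an exon-covered stretch before Tlr3 that is not printed; 7.25% of all windows held one. Myd88 alone of the 6 had the interferon response element, which 2.98% of windows held. These are matches of letters, and no binding was measured.

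In the GRCm38 mouse genome the 10 genes are scattered over 8 chromosomes. The surface receptor genes lie at chr5:64924679-64933561 (Tlr1), chr3:83836272-83841767 (Tlr2) and chr4:66827584-66930284 (Tlr4). The endosomal receptor genes lie at chr8:45395665-45411080 (Tlr3), chrX:167304929-167330558 (Tlr7), chr9:106222598-106226883 (Tlr9) and chrX:106143204-106160493 (Tlr13). Cd14 lies at chr18:36725067-36726798, Ly96 at chr1:16688051-16709611 and Myd88 at chr9:119335934-119341411. Exons of Myd88 share 290 bases, 11.3% of their length, with exons of Acaa1a on the other strand, and exons of Tlr3 share 381 bases, 7.32%, with Gm45542. Read pairs falling in such shared stretches were not assigned to either gene. Tlr1 resembles its neighbour Tlr6 in sequence, and pairs that fitted both places equally well were not counted, so the levels of Tlr1 may be too low.

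Total counts ran from 12.4 M to 27.1 M read pairs in the wound libraries and from 17.9 M to 24 M in the cell libraries. Levels are given as CPM, counts scaled to library size (TMM), separately for wounds and cells. Between replicate libraries, the chi-square for a difference in counts had a median over genes of 0.643 to 0.777 in the day 7 controls and 0.505 to 0.607 in the cells without hydrogel, close to the 0.455 of sampling noise alone, against 5.82 to 25.9 in the controls of days 1 and 14. In the hydrogel wounds it was 6.04 to 20.8 on day 1, 1.22 to 2.06 on day 7 and 1.615 to 4.39 on day 14. In the cells with hydrogel it was 1.475 to 3.42. The first replicates of the day 1 controls, the day 14 controls and the day 1 hydrogel wounds stood apart from the rest of their groups. Of 12 macrophage markers (among them Csf1r, Cd68, Adgre1 and C1qa) all were detected in every wound group, and 11 had any count in the cells without hydrogel. Some of these were barely present there, with means of 0.0279 CPM for C1qa, 0.0301 for C1qc and 0.0279 for Mertk, against 438 for Csf1r. In the cells 8 of the 12 had enough counts to be tested. In the cells, markers of T cells, keratinocytes and fibroblasts summed to 3.42 CPM or less in every library. Other lists were not silent there. Dendritic cell markers summed to 514.3 to 709.9 CPM, mostly Bst2, adipocyte markers to 147.1 to 250.7 CPM, mostly Fabp4, and neutrophil markers to 20.46 to 45.31 CPM.

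In RAW264.7 cells most of the receptors fell with hydrogel while the signalling adaptor rose. With hydrogel, the message of Tlr4, Tlr3, Tlr1, Tlr13, Tlr7 and Ly96 fell, and that of Myd88, Cd14 and Tlr9 rose, so 3 members rose and 6 fell. The cell groups differed widely: 72.5% of the 12972 genes tested passed at an adjusted p below 0.05 (edgeR quasi-likelihood test with Benjamini-Hochberg adjustment over all genes), 34.7% higher and 37.8% lower. Beside that share, 9 of 10 members called says little about the members as a group. The median log2 fold change was -0.72 over the members and -0.04 over all genes. In 9 members the 3 libraries of one group did not overlap those of the other, as in 75.9% of all genes.

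Of the LPS receptor complex, Tlr4 stood at 28.2, 28.5 and 26.2 CPM in the libraries without hydrogel and at 9.07, 9.99 and 9.07 CPM in those with it. Every treated library was below every control, by a log2 fold change of -1.56 ± 0.08 (SE, n = 3 per group, adjusted p = 1.16e-07). Its co-receptor Ly96 stood at 12.02, 12.8 and 10.6 CPM without and at 7.95, 7.93 and 8.19 CPM with hydrogel, giving a log2 fold change of -0.55 ± 0.10 (adjusted p = 0.000448). Cd14 is by far the most abundant of the 10, and it went the other way. Its libraries read 3983, 4032 and 4005 CPM without hydrogel and 5729, 5597 and 5097 CPM with it, a rise of 0.45 ± 0.07 on the log2 scale (adjusted p = 0.000115).

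Among the lipoprotein receptors, Tlr1 stood at 38.3, 37.1 and 36.3 CPM without hydrogel and at 14.5, 14.6 and 14.96 CPM with it. The groups were far apart, with a log2 fold change of -1.34 ± 0.07 (adjusted p = 1.06e-07). Its partner Tlr2 did not pass the test, at 132, 133 and 132 CPM without and 108, 148 and 169 CPM with hydrogel. The treated Tlr2 libraries straddled the controls, and the log2 fold change was 0.10 ± 0.13 (adjusted p = 0.492). Without treated replicate 1, the only one below the controls, Tlr2 passed at 0.28 (adjusted p = 0.000244).

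The endosomal receptors split. Tlr3, the receptor for double-stranded RNA, had the largest drop of the 10, from 19.6, 19.8 and 20.3 CPM to 5.15, 4.49 and 4.08 CPM, giving a log2 fold change of -2.13 ± 0.10 (adjusted p = 6.1e-08). Tlr13 went from 101, 101 and 97.4 CPM to 38.7, 44.9 and 49.8 CPM, giving a log2 fold change of -1.16 ± 0.09 (adjusted p = 8.75e-07). All treated libraries of both genes lay below all controls. Tlr7 went from 146, 143 and 138 CPM to 81.1, 77.0 and 71.8 CPM, giving a log2 fold change of -0.89 ± 0.06 (adjusted p = 7.17e-07). Tlr9 was the only receptor of the list that rose, from 11.5, 10.6 and 11.2 CPM to 20.2, 21.9 and 21.8 CPM, giving a log2 fold change of 0.94 ± 0.08 (adjusted p = 2.12e-06).

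Myd88 stood at 84.2, 83.4 and 80.8 CPM without hydrogel and at 145, 136 and 119.6 CPM with it. All treated libraries were higher, and the log2 fold change was 0.69 ± 0.07 (adjusted p = 1.33e-05). Each of the 9 members that passed in the cells kept its direction and its call under every alternative tried, including each of the 6 libraries left out in turn. The macrophage markers summed to 2405 to 2482 CPM without and to 4451 to 4782 CPM with hydrogel, and 5 of the 8 tested rose, among them Lyz2, Csf1r and Cd68, while Adgre1 and Fcgr1 fell. Their part in the members' changes was not tested.

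**Figure D1:**
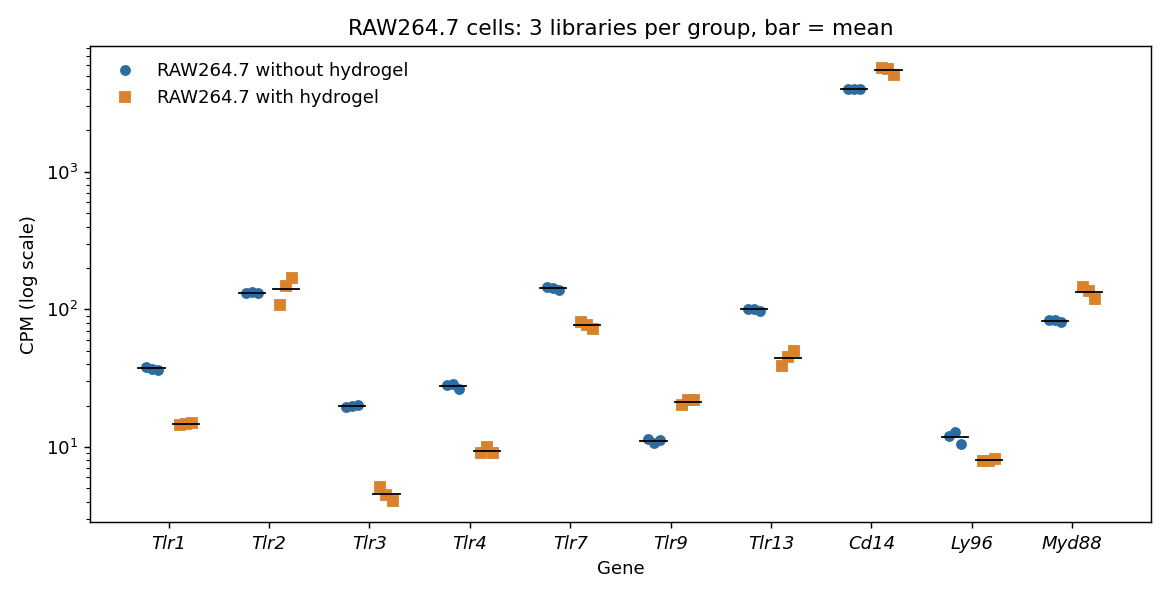
Level of each of the 10 genes in RAW264.7 cells, in CPM on a log axis, with 1 point per library (3 per group) and a bar at the group mean. Tlr1, Tlr3, Tlr4, Tlr7, Tlr13 and Ly96 sit lower with hydrogel, Tlr9, Cd14 and Myd88 sit higher, and the Tlr2 groups overlap.

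Per kilobase of exon, the order of levels in the cells without hydrogel ran from Cd14 at 2313 CPM per kb through Tlr2 at 43.9, Tlr7 at 35.9, Myd88 at 32.2 and Tlr13 at 23.2. Below these, Ly96 at 11.6 and Tlr1 at 11.1 CPM per kb overlapped, followed by Tlr4 at 4.97, Tlr3 at 3.83 and Tlr9 at 3.19. With hydrogel, Myd88 at 51.8 CPM per kb stood level with Tlr2 at 47.1, their libraries overlapping, and Tlr9 at 6.12 stood above Tlr1 at 4.38, Tlr4 at 1.69 and Tlr3 at 0.878. Cd14 remained far above the others, at 3161 CPM per kb.

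The rest of the pathway in the cells was read from gene lists chosen with earlier results of these data known. Counts of genes called stand beside the 72.5% of all genes that passed there, 34.7% higher and 37.8% lower. All 16 kinases and ubiquitin ligases passed, 12 lower and 4 higher, the largest drops being those of Tbk1 (-1.14 ± 0.06) and Tab3 (-1.11 ± 0.08) on the log2 scale. Tbk1 phosphorylates the interferon regulatory factors. Of the adaptors, Ticam2, which links Tlr4 to Ticam1 in endosomes, fell by 1.70 ± 0.15 on the log2 scale, Tirap, which brings Myd88 to Tlr4 and Tlr2, fell by 0.51 ± 0.08, and Ticam1 itself rose by 0.29 ± 0.07. Of the 8 accessory genes tested, 5 fell and 1 rose: Hsp90b1, a chaperone that folds Toll-like receptors, went down by a log2 fold change of -1.30 ± 0.07, whereas its co-chaperone Cnpy3 went up by 1.09 ± 0.09. Tlr6 was the only other receptor with enough counts and fell (-0.76 ± 0.10, adjusted p = 4.05e-05). Lbp, Tlr5, Tlr11 and Tlr12 were at 0 CPM in every cell library.

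Of 18 LPS-induced genes tested in the cells, 12 fell and 2 rose, where 72.5% of all genes passed, 34.7% higher and 37.8% lower. Il6 stood at a mean of 135 CPM without and 20.5 CPM with hydrogel (log2 fold change -2.72 ± 0.07), and Il1a at 188 and 23.8 CPM (-2.99 ± 0.11). Ptgs2, the inducible cyclooxygenase, went from 12850 to 2935 CPM (-2.13 ± 0.06), while Tnf went only from 3168 to 2748 CPM (-0.21 ± 0.06). Ccl4 and Ifnb1 rose, the latter from 0.144 to 0.96 CPM. Of 9 genes of intracellular LPS and related sensing, 6 fell and 3 did not pass, beside the same share of all genes. Among those that fell were Casp4 (-1.71 ± 0.06), which binds LPS in the cytosol, and Casp1 (-1.66 ± 0.07). The median log2 fold change was -0.66 over the LPS-induced genes and -0.97 over the intracellular sensors.

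In the wounds the called differences between hydrogel and control were rises on day 1 and falls on days 7 and 14. For 7 of the 10 members (Tlr1, Tlr2, Tlr4, Tlr7, Tlr9, Tlr13 and Cd14) the difference between hydrogel and control itself changed between days, by an interaction test with adjusted p from 0.00169 to 0.0135, which 15.8% of the 17592 genes tested passed. The change was not called for Tlr3 (adjusted p = 0.0963), Myd88 (0.187) or Ly96 (0.375). In wound tissue, fewer cells of a type and less message per cell cannot be told apart.

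**Figure D2:**
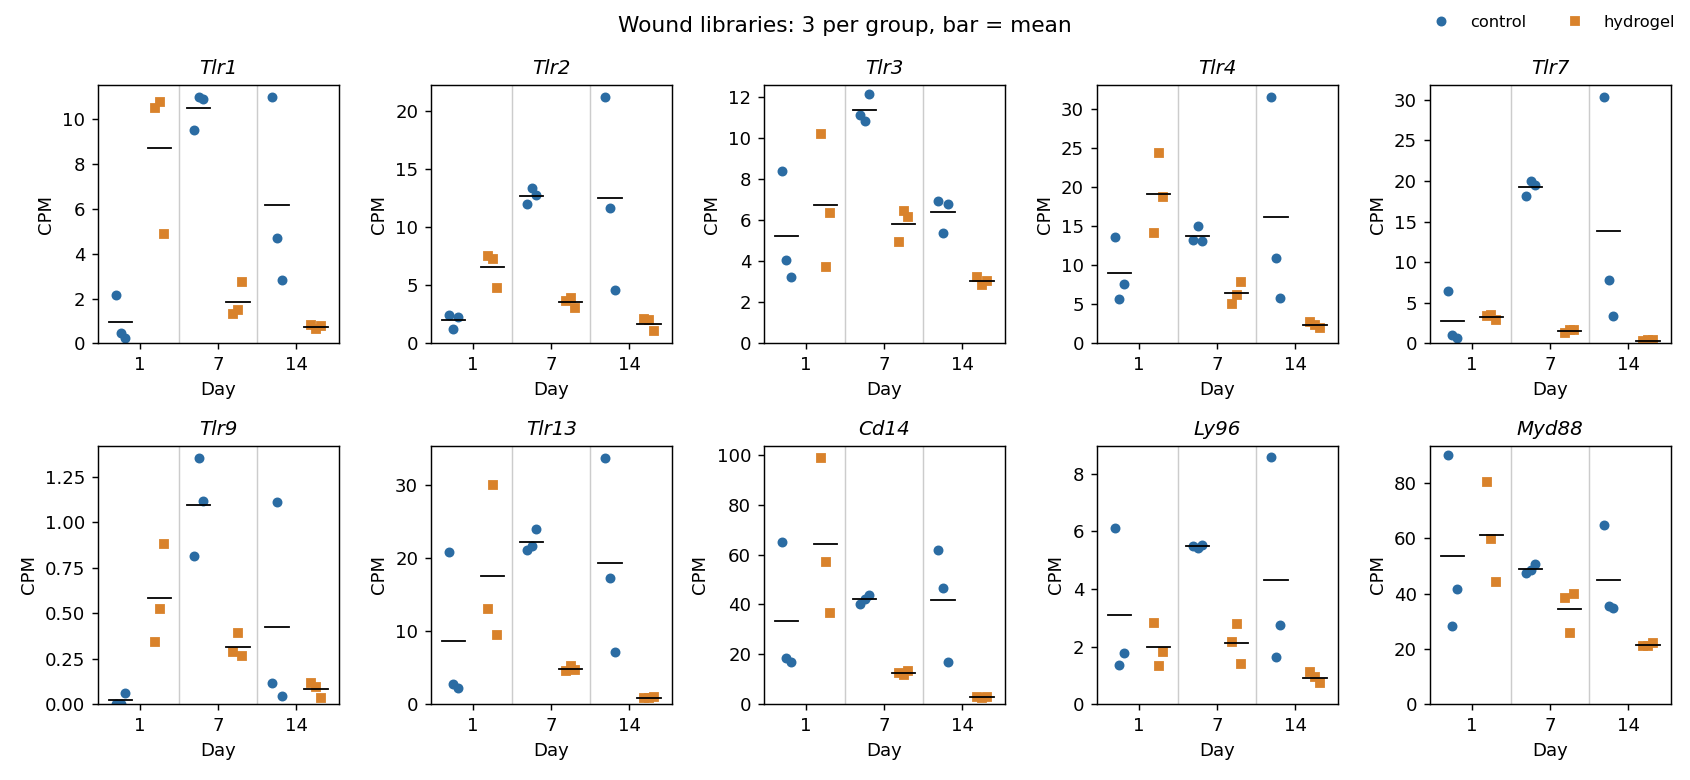
Level of each of the 10 genes in the wound libraries, in CPM on a linear axis that starts at 0, by day, with 1 point per library (3 per group, circles for control and squares for hydrogel) and a bar at the group mean. The controls of day 7 lie close together and those of day 14 are spread, and the 3 hydrogel libraries of day 14 lie at or near the bottom for every gene.

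On day 1, 3 members rose with hydrogel, namely Tlr1, Tlr2 and Tlr9. Over all genes 7.55% passed, 4.53% higher. The median log2 fold change was 0.98 over the members and 0.04 over all genes. Tlr1 was at 2.17, 0.455 and 0.253 CPM in the controls and at 10.5, 10.7 and 4.86 CPM in the hydrogel wounds, a rise of 3.16 ± 0.66 (SE, n = 3 per group) on the log2 scale (adjusted p = 0.0132). Even the lowest treated library exceeded the highest control.

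Tlr2 was at 2.44, 1.29 and 2.28 CPM in the day 1 controls and at 7.56, 7.26 and 4.81 CPM with hydrogel, again without overlap, a rise of 1.70 ± 0.45 on the log2 scale (adjusted p = 0.0345). Tlr9 rested on few counts. Across the 3 controls 1 read pair was counted, and across the 3 hydrogel libraries 31, a ratio of 27.1 at equal library size with an exact 95% interval of 4.52 to 1100 for counting error alone. In CPM these were 0, 0 and 0.0633 against 0.344, 0.526 and 0.879 (fitted log2 fold change 4.35 ± 1.21, adjusted p = 0.0409), where the fitted value depends on the prior count and was 6.49 without control replicate 3, which held the 1 read pair.

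The other 7 members did not pass on day 1. Tlr4 came nearest in separation, at 13.7, 5.76 and 7.66 CPM in the controls and 14.2, 24.4 and 18.8 CPM with hydrogel, without overlap but with the first control just below the lowest treated library (log2 fold change 1.08 ± 0.47, adjusted p = 0.162). On day 1 it was 1 of 4 members whose groups did not overlap, all higher, as for 9.57% of all genes. Cd14 was at 64.9, 18.7 and 17.04 CPM against 98.8, 56.9 and 36.4 CPM (0.93 ± 0.50, adjusted p = 0.25), and Tlr13 at 20.8, 2.80 and 2.22 CPM against 12.97, 30.1 and 9.52 CPM (1.02 ± 0.69, adjusted p = 0.369). In both, the first control was high and fell among the treated libraries. The log2 fold changes of Tlr3 (0.36 ± 0.36), Tlr7 (0.24 ± 0.73), Myd88 (0.20 ± 0.36) and Ly96 (-0.65 ± 0.61) were about as large as their standard errors or smaller. Without control replicate 1 they were 1.89 for Tlr7 (adjusted p = 0.097), 0.80 for Myd88 (0.107) and 0.32 for Ly96 (0.77), and none of these passed. The sign also turned for Tlr7 without control replicate 2 (-0.13) or 3 (-0.22), for Myd88 without control replicate 2 (-0.10) or hydrogel replicate 1 (-0.04), and for Tlr3 without hydrogel replicate 1 (-0.05).

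Of the day 1 calls, those of Tlr2 and Tlr9 depended on single libraries. Tlr1 passed with each of the 6 left out in turn, at 4.61 without control replicate 1, but not with only the day 1 libraries in the model (adjusted p = 0.338) or with the day 7 libraries summed within each group (0.104). Tlr2 lost its call without control replicate 2 (adjusted p = 0.101) or 3 (0.0535) and without hydrogel replicate 2 (0.0807) or 3 (0.0579). Tlr9 lost its call without control replicate 1 (0.0823), 2 (0.104) or 3 (0.0539) or hydrogel replicate 2 (0.0704) or 3 (0.13). With no filter on low counts both were just short of the threshold (0.051 and 0.0508), and by limma-voom Tlr2 was too (0.0536). Without control replicate 1, which stood apart, Tlr13 (2.81, adjusted p = 0.0105) and Cd14 (1.84, adjusted p = 0.0208) passed as well, whereas without hydrogel replicate 2 the Tlr13 difference was 0.38 (adjusted p = 0.817). With the 3 libraries that stood apart all left out, 7 members passed, all higher. Of all genes 6454 passed then, in either direction.

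Some neutrophil markers were higher with hydrogel too. Of 9 tested, 4 rose on day 1 (Csf3r by 3.42 ± 0.68, Stfa2l1 by 2.93 ± 0.77, Mmp9 by 2.82 ± 0.68 and S100a9 by 2.72 ± 0.61, log2), and the sum of 12 markers ran from 203 to 1038 CPM with hydrogel and from 174 to 235.6 CPM in the controls. The sums overlapped, through hydrogel replicate 3 at 203 CPM. In both groups S100a8 and S100a9 had the largest means of the 12, at 115 and 45.9 CPM in the controls and 253 and 303 CPM with hydrogel. Of 12 macrophage markers 1 rose (Fcgr1), with sums of 719.9 to 905.5 CPM with hydrogel and 468.8 to 1244 CPM in the controls. Of 7 skeletal muscle markers 0 passed by edgeR, with sums of 95460 to 166900 CPM with hydrogel and 6440 to 214000 CPM in the controls. The lowest muscle sum, 6440 CPM, was that of control replicate 1. Its adipocyte markers summed to 49380 CPM, against 7960 and 3573 CPM in the other controls. The part of these cell types in the rise of Tlr1, Tlr2 and Tlr9 was not tested.

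Other genes of the pathway were mostly not called on day 1. Of 15 LPS-induced genes 5 rose, with Il1b at a mean of 3.54 CPM in the controls and 36.0 CPM with hydrogel (log2 fold change 3.34 ± 0.71, adjusted p = 0.0141) and Saa3, an acute-phase protein, at 33.3 and 1110.0 CPM (5.06 ± 1.19, adjusted p = 0.0224). Trem1, Nlrp3 and Clec4e, receptors that act beside Toll-like receptors, rose as well. Nfkbia, the inhibitor that NF-kappaB itself induces, fell by 1.13 ± 0.17 (adjusted p = 0.00328), and the kinase Irak2 fell by 1.41 ± 0.29 (log2). Cd180, a relative of Tlr4, rose by 3.28 ± 0.63. Of the 4 other Toll-like receptors tested, 0 passed by edgeR, and 2 had an unadjusted p below 0.05.

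On day 7 every member was lower with hydrogel, and in every one the 3 treated libraries lay below the 3 controls, as in 34.9% of all genes. Tlr1, Tlr2, Tlr7, Tlr13 and Cd14 fell, 5 of 10, where 21.6% of all genes passed, 11.7% lower. The median log2 fold change was -1.77 over the members and 0.01 over all genes. The single-stranded RNA receptor Tlr7 had the largest difference, at 18.2, 20.0 and 19.5 CPM in the controls and 1.29, 1.68 and 1.67 CPM with hydrogel, giving a log2 fold change of -3.63 ± 0.79 (adjusted p = 0.00632).

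Tlr1 was at 9.51, 10.96 and 10.9 CPM in the day 7 controls and at 1.29, 1.51 and 2.74 CPM with hydrogel, giving a log2 fold change of -2.50 ± 0.63 (adjusted p = 0.0125). Its partner Tlr2 was at 11.96, 13.3 and 12.8 CPM against 3.66, 3.92 and 3.07 CPM (-1.84 ± 0.44, adjusted p = 0.0103). Both lipoprotein receptors, higher with hydrogel on day 1, were thus lower on day 7. Tlr13 stood at 21.1, 21.6 and 24.0 CPM in the controls and 4.52, 5.26 and 4.67 CPM with hydrogel (-2.20 ± 0.72, adjusted p = 0.0405). Cd14 stood at 40.2, 42.2 and 43.8 CPM against 12.5, 11.6 and 13.2 CPM (-1.76 ± 0.51, adjusted p = 0.0248).

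The 5 members that did not pass on day 7 were also lower by their libraries. Tlr4 was at 13.2, 15.03 and 13.2 CPM against 5.09, 6.27 and 7.88 CPM (-1.11 ± 0.48, adjusted p = 0.106). Ly96 was at 5.50, 5.41 and 5.51 CPM against 2.15, 2.80 and 1.40 CPM (-1.36 ± 0.60, adjusted p = 0.113). The log2 fold changes of Tlr9 (-1.77 ± 0.79, adjusted p = 0.118), Tlr3 (-0.96 ± 0.36, adjusted p = 0.0687) and Myd88 (-0.50 ± 0.36, adjusted p = 0.322) did not pass either. Of these, Myd88 had the smallest difference, with 47.5, 48.6 and 50.7 CPM in the controls and 38.2, 25.6 and 39.7 CPM with hydrogel.

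These day 7 tests borrow their spread from all 18 wound libraries, and the spread within the day 7 groups was smaller. With only the day 7 libraries in the model all 10 members passed, as did 11122 of all genes. That model treats control libraries that hardly differ beyond sampling noise as separate samples. The reported model of all 18 wound libraries does so too, and its spread serves every wound test. When each day 7 group was summed to 1 library, 0 members passed by edgeR and 1 had an unadjusted p below 0.05. Tlr2 and Tlr7 passed with each of the 6 libraries left out in turn. Tlr1 lost its call without hydrogel replicate 1 (adjusted p = 0.0605) or 2 (0.0569). Tlr13 and Cd14 lost theirs without each of the 6 in turn, at adjusted p between 0.0811 and 0.118 and between 0.0559 and 0.0808, and also with no filter on low counts (0.0995 and 0.0517).

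Macrophage markers moved in step, with 11 of 12 lower on day 7. Their sum was 3098 to 3135 CPM in the controls and 443.4 to 494.6 CPM with hydrogel. All 7 fibroblast markers fell as well, as did all 6 adipocyte markers (sums of 19460 to 19810 CPM in the controls and 615.5 to 679.1 CPM with hydrogel), 5 of 6 endothelial markers and 4 of 8 dendritic cell markers. Of 7 basal keratinocyte markers 6 rose, and of 7 T cell and NK markers tested 2 fell. Of 7 skeletal muscle markers 1 rose, and by edgeR 5 had an unadjusted p below 0.05. The muscle sums were 27630 to 27920 CPM in the controls and 86510 to 102500 CPM with hydrogel. Neutrophil marker sums overlapped, at 127.5 to 133.6 and 104.5 to 141.5 CPM. Of the 9 neutrophil markers tested, 0 passed by edgeR and 1 had an unadjusted p below 0.05. The part of these cell types in the members' fall was not tested.

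The partners of the endosomal and surface receptors were lower on day 7 too. Of 9 accessory genes 6 fell, with a median log2 fold change of -2.14. Unc93b1, which carries the nucleic acid receptors to endosomes, was at a mean of 134 CPM in the controls and 25.9 CPM with hydrogel (-2.37 ± 0.52, adjusted p = 0.00636). Ly86, the partner of Cd180, fell by 3.39 ± 0.77. Tlr6 fell (-2.08 ± 0.54, adjusted p = 0.0141), as did the adaptors Ticam2 (-2.98 ± 0.69) and Pik3ap1 (-2.71 ± 0.73).

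Further down the day 7 pathway the picture was mixed. Of 16 kinases and ubiquitin ligases only Irak2 passed, lower, and the median of that list was -0.01. Of 13 transcription factors Irf5, Irf7 and Irf8 fell and Cebpb (1.82 ± 0.28) and Rel (1.40 ± 0.29) rose. Among 15 LPS-induced genes 4 fell, among them Lcn2 (-2.39 ± 0.33) and Saa3 (-4.52 ± 1.16), whereas the neutrophil chemokine Cxcl1 rose (2.47 ± 0.57). Nod2, a sensor of bacterial cell wall fragments, rose (1.88 ± 0.50) and Nod1 fell (-0.92 ± 0.21).

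On day 14, 7 members fell with hydrogel, namely Tlr1, Tlr2, Tlr4, Tlr7, Tlr13, Cd14 and Ly96, where 16.1% of all genes passed, 10.3% lower. The median log2 fold change was -2.82 over the members and 0.03 over all genes. In 9 members the treated libraries lay wholly below the controls, as in 20% of all genes. The control libraries differed widely among themselves on this day, with replicate 1 the highest for most members, while the treated libraries were close together.

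The LPS complex was lower in all 3 parts on day 14. Tlr4 was at 31.7, 11 and 5.81 CPM in the controls and at 2.80, 2.34 and 1.93 CPM with hydrogel, giving a log2 fold change of -2.77 ± 0.50 (adjusted p = 0.00332). Cd14 was at 61.7, 46.5 and 16.8 CPM against 2.92, 2.40 and 2.83 CPM (-3.94 ± 0.56, adjusted p = 0.00123). Even the lowest Cd14 control stood well above every treated library. Ly96 was at 8.58, 1.63 and 2.75 CPM against 1.10, 0.935 and 0.724 CPM (-2.21 ± 0.62, adjusted p = 0.0251), a narrower gap.

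Among the nucleic acid receptors, Tlr7 was at 30.3, 7.79 and 3.34 CPM in the day 14 controls and at 0.276, 0.374 and 0.414 CPM with hydrogel, giving a log2 fold change of -5.25 ± 0.86 (adjusted p = 0.00216). Tlr13 was at 33.7, 17.3 and 7.09 CPM against 0.828, 0.841 and 0.966 CPM (-4.45 ± 0.80, adjusted p = 0.00327). Every treated library of both genes lay far below every control. Tlr9 was at 0.116, 1.11 and 0.0458 CPM in the controls and 0.118, 0.0935 and 0.0345 CPM with hydrogel, so 1 control library made the difference (-2.34 ± 0.88, adjusted p = 0.0809). Tlr3 was at 6.96, 5.39 and 6.82 CPM against 3.23, 2.87 and 3.04 CPM (-1.07 ± 0.36, adjusted p = 0.0569), without overlap but short of the threshold.

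Of the lipoprotein receptors, Tlr2 was at 21.2, 11.7 and 4.62 CPM in the day 14 controls and at 2.09, 1.99 and 1.07 CPM with hydrogel (-2.86 ± 0.46, adjusted p = 0.00187). Tlr1 was at 10.96, 4.71 and 2.84 CPM against 0.828, 0.623 and 0.759 CPM (-3.05 ± 0.65, adjusted p = 0.00674). Both sets of libraries were well separated. Myd88 was at 64.6, 35.4 and 34.8 CPM against 21.2, 21.0 and 22.0 CPM (-1.07 ± 0.36, adjusted p = 0.0551), so the adaptor differed less than most of the receptors it serves.

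Without control replicate 1, which stood apart, the day 14 log2 fold changes were smaller but passed for Tlr1 (-2.35), Tlr2 (-2.25), Tlr4 (-1.84), Tlr7 (-3.94) and Tlr13 (-3.79). Ly96 lost its call without that library (-1.24, adjusted p = 0.191) and without hydrogel replicate 1 (adjusted p = 0.0568), 2 (0.0887) or 3 (0.112). Without control replicate 3, Tlr9 (-2.86, adjusted p = 0.0175) and Myd88 (-1.22, adjusted p = 0.0361) passed too. Without control replicate 2 the Tlr9 difference was 0.06 (adjusted p = 0.97). With only the day 14 libraries in the model 3 members passed, and Tlr1 (adjusted p = 0.0507), Tlr2 (0.0587), Tlr4 (0.0663) and Ly96 (0.0923) did not. Of all genes 433 passed with that model.

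**Figure D3:**
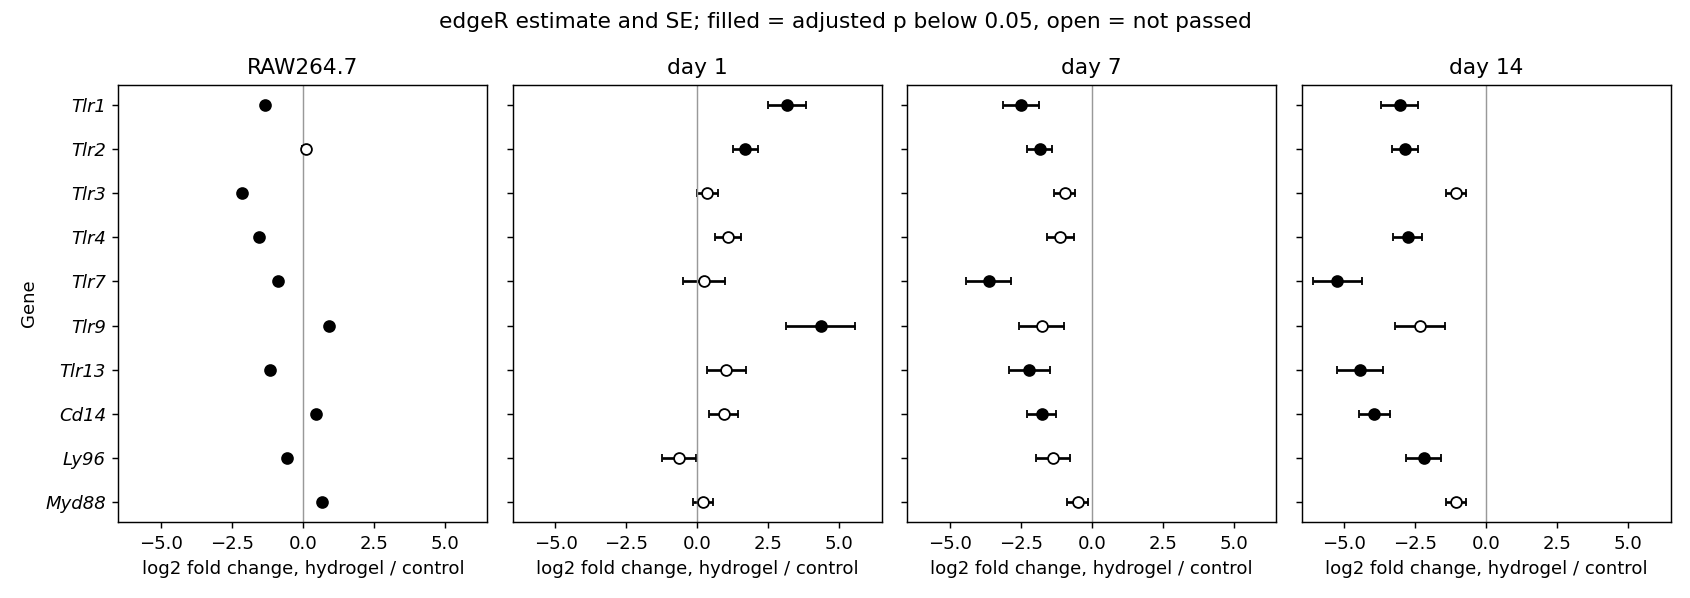
Log2 fold change of hydrogel against control with its standard error, from edgeR, for the 10 genes in the cells and on each day in the wounds (3 libraries per group). Filled points passed at an adjusted p below 0.05 and open points did not. The points lie mostly right of 0 on day 1 and left of 0 on days 7 and 14.

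Macrophage markers were lower on day 14 as well: 10 of 12 fell, and their sum was 171.7 to 195.6 CPM with hydrogel and 666.2 to 5384 CPM in the controls. Of 9 neutrophil markers 5 fell, although their sums of 40.2 to 114 CPM and 62.8 to 413.9 CPM overlapped. All 7 fibroblast markers fell, as did 3 of 6 endothelial and 3 of 8 dendritic cell markers, while 1 of 6 adipocyte markers rose. Of 7 skeletal muscle markers 0 passed by edgeR and 2 had an unadjusted p below 0.05. The muscle sums were 12250 to 18770 CPM with hydrogel and 28690 to 36490 CPM in the controls. The part of these cells in the members' fall was not tested.

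In the wider pathway on day 14, accessory genes and LPS-induced genes fell in part, and kinases were mostly not called. Of 9 accessory genes 6 fell (median log2 fold change -3.77), among them Lbp, which carries LPS to Cd14, at 9.93 to 339 CPM in the controls and 3.97 to 6.15 CPM with hydrogel (-4.71 ± 0.90, adjusted p = 0.00409). The Lbp groups did not overlap, but the highest control library made up most of the control mean of 126 CPM. Itgam and Itgb2, the subunits of complement receptor CR3, fell by 4.37 ± 0.81 and 3.77 ± 0.70 (log2). Of the 4 other Toll-like receptors tested, Tlr6 (-2.73 ± 0.55) and Tlr8 (-3.11 ± 0.68) fell, while Tlr5 (-0.10 ± 0.44) and Tlr11 (0.07 ± 0.69) did not pass. Of 16 kinases and ubiquitin ligases only Irak2 passed (-1.14 ± 0.29), and the list's median was 0. Of 15 LPS-induced genes 8 fell, with Saa3 at 5.17 to 924 CPM in the controls and 2.17 to 3.90 CPM with hydrogel (-6.86 ± 1.30) and Cxcl2 at 1.05 to 5.22 and 0.0345 to 0.118 CPM (-5.38 ± 0.85).

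Averaged over the 3 days, Tlr7 (-2.88 ± 0.45), Tlr13 (-1.88 ± 0.42), Cd14 (-1.59 ± 0.29), Ly96 (-1.41 ± 0.35), Tlr2 (-1.0 ± 0.25) and Tlr4 (-0.93 ± 0.27) fell, 6 of 10 members where 31.8% of all genes passed, 16.2% lower. For Tlr2 this average joins a rise on day 1 to falls on days 7 and 14. For Tlr4, Tlr13, Cd14 and Tlr7 it joins positive day 1 values that did not pass (1.08, 1.02, 0.93 and 0.24) to negative ones later. For all of these but Ly96 the difference itself changed between days. For Ly96 the lower values on days 7 and 14 join a day 1 value of -0.65 that did not pass and that was 0.32 without control replicate 1. Without control replicate 1 of day 1 the Tlr13 average was -1.28 (adjusted p = 0.00585).

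Within each arm the time courses ran in different directions. In the controls 5 members rose from day 1 to day 7, where 15% of all genes rose and 31.6% passed: Tlr9 (5.23 ± 1.16), Tlr1 (3.43 ± 0.66), Tlr7 (2.81 ± 0.75), Tlr2 (2.65 ± 0.46) and Tlr3 (1.12 ± 0.36), with a median over the 10 of 1.25. The Tlr9 estimate again rests on the 1 read pair of day 1 and, as a ratio of counts, was 48.3 with an exact interval of 8.25 to 1950. Without control replicate 1 of day 1, Tlr13 (3.14), Ly96 (1.79) and Cd14 (1.23) passed too, and Tlr1 (4.88) and Tlr7 (4.45) rose further. Tlr7 lost its call without control replicate 2 of day 1 (2.43, adjusted p = 0.0553), and Tlr3 lost its call when replicate 2 or 3 of day 1 or any replicate of day 7 was left out, at adjusted p from 0.064 to 0.117.

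From day 1 to day 14 in the controls Tlr1, Tlr2, Tlr7 and Tlr9 rose, where 16.7% of all genes rose and 32.4% passed. The Tlr7 and Tlr9 groups overlapped, and without control replicate 1 of day 14 the Tlr7 difference was 1.02 (adjusted p = 0.222), while without replicate 2 of day 14 the Tlr9 difference was 1.52 (adjusted p = 0.402). Tlr7 also lost its call without control replicate 2 (adjusted p = 0.101) or 3 (0.0781) of day 1, and Tlr9 without replicate 1 (0.0629) or 2 (0.0834). Without replicate 2 of day 1, 2 members passed, and without replicate 1 of day 1 Tlr13 (2.94) and Cd14 (1.22) passed too. Tlr1 and Tlr2 passed with each of the 6 libraries left out in turn.

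With hydrogel, 3 members fell from day 1 to day 7, where 10.5% of all genes fell and 18.3% passed: Cd14 (-2.36 ± 0.52), Tlr1 (-2.23 ± 0.62) and Tlr4 (-1.58 ± 0.48). Without hydrogel replicate 2 of day 1, or replicate 1 or 2 of day 7, Cd14 alone passed. Tlr4 also lost its call without hydrogel replicate 3 of day 1 (adjusted p = 0.0757) or of day 7 (0.0675). From day 1 to day 14, 9 members fell, all but Ly96, where 26.1% of all genes fell and 47.8% passed. The largest of these were Cd14 (-4.56 ± 0.57, adjusted p = 6.74e-05) and Tlr13 (-4.31 ± 0.80, adjusted p = 0.000732), and the median over the 10 was -2.90. Tlr3 lost its call without hydrogel replicate 1 of day 1 or replicate 2 or 3 of day 14, at adjusted p from 0.0529 to 0.0946, and Tlr9 without hydrogel replicate 3 of day 1 or replicate 2 or 3 of day 14, at adjusted p from 0.0507 to 0.0768. The hydrogel and control comparisons on 1 day share these libraries with the comparisons over time.

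Across the 6 wound groups the lowest mean was that of the day 14 hydrogel wounds for 9 members, and for Tlr9 it was that of the day 1 controls. For Tlr1, Tlr2 and, by a narrow margin, Tlr3 the day 14 hydrogel libraries overlapped those of the day 1 controls. The highest mean was in the day 7 controls for Tlr1, Tlr2, Tlr3, Tlr7, Tlr9, Tlr13 and Ly96, and in the day 1 hydrogel wounds for Tlr4, Cd14 and Myd88. For Tlr4 the order was 19.1 CPM in day 1 hydrogel, 16.2 in day 14 control, 13.8 in day 7 control, 9.02 in day 1 control and 6.41 in day 7 hydrogel wounds, each overlapping the next, with 2.36 in day 14 hydrogel wounds below all of them.

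Per kilobase, Cd14 and Myd88 led in every wound group and Tlr9 was last in every one. In the day 7 controls Cd14 was at 24.3 and Myd88 at 19.0 CPM per kb, followed by Ly96 at 5.36, Tlr13 at 5.17 and Tlr7 at 4.86, whose libraries overlapped, and by Tlr2 at 4.21, Tlr1 at 3.13, Tlr4 at 2.49, Tlr3 at 2.18 and Tlr9 at 0.315. In the day 14 hydrogel wounds Myd88 at 8.31 CPM per kb stood above Cd14 at 1.57 and Ly96 at 0.902. Below them Tlr3 at 0.585, Tlr2 at 0.57 and Tlr4 at 0.424 overlapped one another in turn, and Tlr7 at 0.0895 CPM per kb was in the ninth place, as it was in the hydrogel wounds of days 1 and 7.

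Levels were also expressed per 1000 CPM of the summed 12 macrophage markers, as a description with no test. Because the marker sum itself was so much lower with hydrogel on days 7 and 14, this ratio was higher in the hydrogel libraries, without overlap, for 93% of all genes on day 7 and 92.8% on day 14, and lower for 1.58% and 0.301%. A member that comes out higher is therefore like nearly every other gene. Tlr7 came out lower on day 7 (2.77 to 3.76, against 5.88 to 6.45 in the controls) and on day 14 (1.41 to 2.41, against 4.35 to 5.63), and Tlr13 came out lower on day 14 (4.23 to 5.62, against 6.27 to 10.6). The groups overlapped for Tlr1 on day 7 and for Tlr1, Tlr2, Tlr9 and Cd14 on day 14.

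In the cells, where the marker sum was higher with hydrogel, the ratio was lower without overlap for 80.3% of all genes and for 8 members, so that count says nothing of the members. For Tlr9 and Myd88 the cell groups overlapped.

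**Figure D4:**
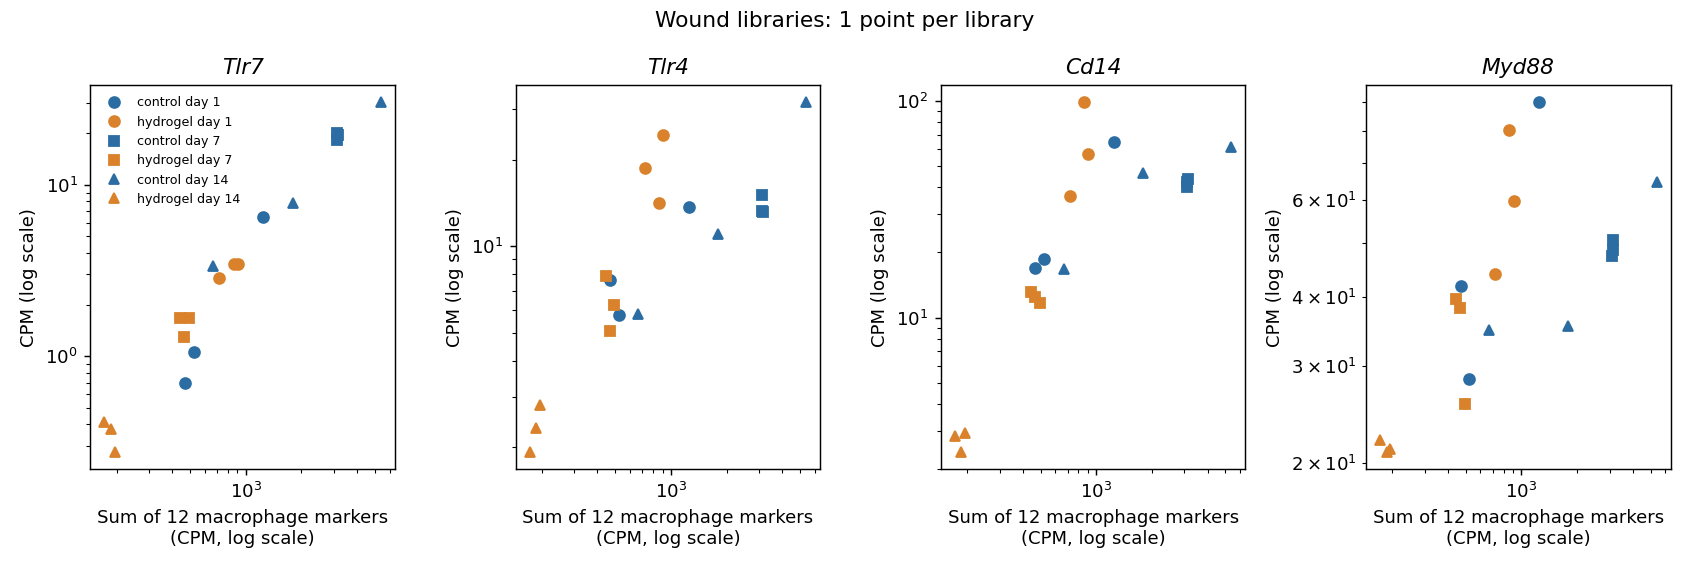
CPM of Tlr7, Tlr4, Cd14 and Myd88 in each of the 18 wound libraries against the sum of 12 macrophage markers in the same library, both on log axes, with 3 points per group. The sums span 171.7 to 5384 CPM, and over that span Tlr7 runs from 0.276 to 30.3 CPM and Myd88 from 21.0 to 90.0 CPM.

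Over the 18 wound libraries, log2 levels of Tlr7 and Tlr13 (Pearson r = 0.93), Tlr4 and Cd14 (0.93), Tlr13 and Cd14 (0.93) and Tlr4 and Tlr13 (0.92) ran closest together among the members. The loosest pairs were Tlr9 with Myd88 (0.22) and with Ly96 (0.27). The points share their groups, days and depth, so these values describe the libraries and carry no p. Among 11523 genes compared, the pattern of Tlr4 was most like those of Zcchc24 (r = 0.963), C5ar1 (0.959), a receptor for a complement fragment, and Mcoln2 (0.956). That of Cd14 was most like Mcoln2 (0.974), Slfn2 (0.972) and Clec4d (0.972). For Tlr2 the nearest were Tifab (0.963), Arl11 (0.96) and Pik3ap1 (0.958), the last an adaptor of the same pathway. Tlr3 stood nearest to Irf1 (0.961), an interferon regulatory factor, Myct1 (0.956) and Uba7 (0.935).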

How the data were processed

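Counts of read pairs per gene symbol were used as the authors deposited them, for 18 wound and 6 cell libraries grouped by their titles. Per the submitters' processing notes, Trim Galore 0.6.10, FastQC 0.11.9, HISAT2 2.2.1 with mm10, SAMtools 1.9 and featureCounts 2.0.6 were used. Per the file headers, the counts are over exons of the GENCODE annotation of GRCm38, by gene name and without strand, with pairs mapping to several places or genes left out. Every library held 0 counts for the 32 mitochondrial symbols. Reads were not used here.

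Genes were kept with filterByExpr (minimum count 10, minimum total 15) of edgeR 4.0.16 in R 4.3.3 and scaled by TMM. One robust edgeR quasi-likelihood model held the 18 wound libraries as 6 groups (17592 genes, 12 residual degrees of freedom), and another held the 6 cell libraries (12972 genes, 4 residual degrees of freedom). P-values were adjusted by Benjamini-Hochberg over all genes, with a threshold of 0.05, and "rose" or "fell" is said only of genes below it. Likeness was the Pearson correlation of log2 CPM (prior count 2) over the wound libraries, among genes with a mean of at least 5 CPM. Alternatives were RLE size factors, no filter, a stricter filter (minimum count 30 and at least 1 CPM in 3 libraries), DESeq2 1.42.0, voom with quality weights in limma 3.58.1, a model of the compared groups alone, a block for the replicate number, leaving out every library singly, summing the day 7 libraries and, added after seeing the data, leaving out 3 libraries together. The test was tried on simulated counts. All 10 members were named, with up to 4 other genes of a pathway list by adjusted p and a few others chosen for their role after their values were seen. The members and the lists (89 pathway genes, 78 markers) were chosen with earlier results of these data known. Wound libraries held 12.4 M to 27.1 M counts, so members below 1 CPM rest on few read pairs.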

Additional observations from a re-analysis of the deposited data

Results flagged for a closer look

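The difference between hydrogel and control wounds itself differed between days 1, 7 and 14 for 7 of the 10 members, by the edgeR interaction test over the 18 wound libraries with adjustment over all 17592 genes. Of all these genes 15.8% passed. The adjusted p was 0.00169 for Tlr2, 0.0017 for Tlr1, 0.00307 for Cd14, 0.00636 for Tlr4, 0.0088 for Tlr13, 0.01 for Tlr7 and 0.0135 for Tlr9. For Tlr1 the log2 fold changes were 3.16, -2.50 and -3.05 on the 3 days, and for Tlr2 they were 1.70, -1.84 and -2.86. Those of Cd14 were 0.93, -1.76 and -3.94, and those of Tlr7 were 0.24, -3.63 and -5.25. With the day 7 libraries summed within each group, 0 members passed this test by edgeR and 7 had an unadjusted p below 0.05. DESeq2, run only with all 18 libraries kept apart, called 8, beside 4664 of all genes.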

How the results depend on the processing

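Each of the 10 counts of members called was recomputed under the alternatives, and 130 of 169 recomputed counts stayed within 1.5 times the reported one. Summing the day 7 libraries within each group, which removes residual degrees of freedom, moved the most: by edgeR 0 members passed on day 1 (3 at an unadjusted p below 0.05), on day 7 (1), on the average of days (6), for the change between days (7), for day 7 against day 1 in controls (4) and in hydrogel wounds (1), and 2 for day 14 against day 1 in controls. DESeq2 was not run on the summed libraries. With all 18 wound libraries kept apart it called 3, 6, 7, 8, 5, 4 and 4 members for these comparisons in the same order. Of all genes it called 2626, 4992, 6693, 4664, 6554, 4340 and 6529. With only the compared groups in the model, 0 passed on day 1 (3 unadjusted), 10 on day 7, 3 on day 14, 3 for day 7 against day 1 in controls and 0 for day 14 against day 1 in controls (2 unadjusted). Of all genes 0, 11122, 433, 4341 and 77 passed so, against 1329, 3792, 2836, 5553 and 5699 in the reported model. With no filter on low counts 1 passed on day 1 and 3 on day 7, beside 715 and 2840 of all genes. By limma-voom 6 passed on day 1, 10 on day 7, 9 for day 7 against day 1 in controls and 5 in hydrogel wounds. Beside these stood 4280, 12321, 10179 and 9206 of all genes. Without the 3 libraries that stood apart, 7 passed on day 1, 10 on day 7, 10 and 7 for days 7 and 14 against day 1 in controls and 6 for day 7 against day 1 in hydrogel wounds. Of all genes 6454, 9152, 10987, 9664 and 9290 passed without them, in the same order. The cause was not tested beyond the change in the libraries used. Leaving out 1 library gave 9 to 10 members in cells, 1 to 4 on day 1, 2 to 3 on day 7, 6 to 9 on day 14, 6 to 8 on the average, 7 to 9 for the change between days, 3 to 8 and 2 to 5 for days 7 and 14 in controls, and 1 to 3 and 7 to 9 in hydrogel wounds. Of all genes, these fits called 8615 to 9871 in cells. Between hydrogel and control they called 425 to 3012 on day 1, 1859 to 1990 on day 7 and 806 to 4322 on day 14. A day 7 group summed to 1 library was assumed to vary like the other groups. Of the single members' log2 fold changes that passed, none reversed under any alternative. The labels do not say that equal replicate numbers mark paired samples, and with 3 libraries per group this could not be settled. Deviations of equally numbered libraries from their group means correlated at 0.37, 0.26 and 0.09 on day 1. The values were 0.09, 0.03 and 0.04 on day 7, 0.15, -0.02 and 0.24 on day 14, and 0, 0.01 and -0.02 in cells. On day 7, 6 of 6 libraries correlated best with their own number, on days 1 and 14 4 of 6, and in cells 2 of 6. With the replicate block 9 members passed on day 14 and 7 on the average of days, against 7 and 6 without it, and the other counts were equal. Of all genes 3056 and 5804 passed with the block, against 2836 and 5594 without it. Depth limits Tlr9 most, since the day 1 controls hold 1 read pair of it in all.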

Other observations

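Among negative regulators of Toll-like receptor signalling in the cells, Tnfaip3 (log2 fold change -0.81 ± 0.10, edgeR, n = 3 per group), a ubiquitin editor that shuts down NF-kappaB, fell with hydrogel, as did the deubiquitinase Cyld (-0.80 ± 0.07), Irak3 (-0.73 ± 0.07), a kinase relative that holds back Irak1 and Irak4, and Il1rl1 (-0.72 ± 0.06). Zc3h12a, a nuclease that degrades cytokine messages, rose (0.53 ± 0.08), as did Sigirr (0.64 ± 0.20) and Tnip1 (0.27 ± 0.06), so of 12 tested 3 rose and 4 fell, where 72.5% of all genes passed. In the wounds Zc3h12a rose on day 7 (1.55 ± 0.22, adjusted p = 0.0012) together with Socs3 (1.20 ± 0.40, adjusted p = 0.0442). On day 14 Socs3 fell (-1.21 ± 0.40, adjusted p = 0.0499), as did Dusp1 (-1.81 ± 0.51) and Il1rl1 (-4.54 ± 0.72), a receptor for interleukin 33 that stood at a mean of 17.3 CPM in the controls and 0.744 CPM with hydrogel.

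Of the transcription factors in the cells, Irf7 (-0.93 ± 0.09), Rel (-0.92 ± 0.06) and Nfkb2 (-0.38 ± 0.07) fell and Jun (0.54 ± 0.06), Fos (0.42 ± 0.13), Irf3 (0.41 ± 0.10) and Rela (0.40 ± 0.06) rose, 3 lower and 4 higher of 13 tested, where 72.5% of all genes passed. Irf7, which drives interferon genes downstream of Tlr7 and Tlr9, also fell in the wounds, from a mean of 228 to 18.5 CPM on day 7 (-3.62 ± 0.89, adjusted p = 0.0116) and from 21.05 to 209.4 CPM in the controls to 10.2 to 11.95 CPM with hydrogel on day 14 (-3.03 ± 0.87, adjusted p = 0.0284).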
